A study of Mus musculus with 2 samples.

Results

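A set of 36 genes of DNA replication was followed through single cells of mouse blastocysts and of embryoids, aggregates that are built from cultured stem cells to resemble an early embryo. The genes were chosen by name, for their part in licensing origins, unwinding DNA, building the new strands and supplying nucleotides. All 36 were present in both count tables, among 22802 genes with at least 1 molecule in either. They were Mcm2 to Mcm7, Orc1, Orc6, Cdc6, Cdt1, Gmnn, Mcm10, Cdc45, Gins1 to Gins4, Pola1, Pola2, Prim1, Prim2, Pold1, Pold2, Pole, Pcna, Rfc2 to Rfc5, Rpa1, Rpa2, Fen1, Lig1, Rrm1, Rrm2 and Tyms.

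The blastocyst library came from whole embryos of the B6C3F1 strain at embryonic day 4.5, when epiblast, primitive endoderm and trophectoderm are in place. The embryoid library came from aggregates of ES cells of the Lifeact-RFPRuby strain, which carry a fluorescent actin label, and XTE cells. The XTE cells had been reprogrammed from Gata6-H2B:Venus ES cells and kept on fibronectin with CHIR99021, BMP4, Fgf4, heparin and Activin, whereas the ES cells were kept in serum with PD0325901, CHIR99021 and Lif. About 10000 ES cells were joined with 50000 to 80000 XTE cells, left for 48 h in aggregation wells and for 48 h in repellent plates. Each library was prepared from 6000 dissociated cells with the BD Rhapsody whole transcriptome kit. How many embryos or embryoids were pooled is not stated in the labels, and each group is 1 library. A difference between embryoid and blastocyst therefore cannot be told apart from a difference between 2 libraries, no p-value is given, and intervals cover counting error only.

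Before S phase the origin recognition complex, Cdc6 and Cdt1 load the MCM helicase onto origins, and geminin (Gmnn) blocks a further round of loading. In S phase Cdc45, the GINS complex and Mcm10 activate the helicase, DNA polymerase alpha with its primase starts each strand, polymerases delta and epsilon extend it behind the PCNA clamp, and RPA covers the single strands. Cells that divide pass from there to mitosis, but trophoblast cells away from the inner cell mass are known to leave this order and become giant cells, which copy their genome again without dividing. In that setting replication genes are needed while genes that act only in mitosis are not. The 36 genes were therefore read beside a list of 30 mitosis genes. That list is not limited to genes used in mitosis alone, since it holds Ccna2, Cdk1 and Top2a.

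The embryoid library kept 5328 of its 5546 barcodes and the blastocyst library 1080 of 1288, with a median of 4768.5 and 9273 unique molecular identifiers (UMIs, counted molecules) per cell. Only 9 barcode sequences occurred in both libraries. Clusters of the blastocyst library gave 376 trophectoderm-like (TE-like), 257 epiblast-like (EPI-like) and 372 primitive endoderm-like (PrE-like) cells. Of the embryoid cells, 3790 were PrE-like, 110 EPI-like and 104 fibroblast-like, and no cluster was TE-like although the title of the series calls the reprogrammed cells trophectoderm-like. Unnamed clusters held 1324 embryoid and 75 blastocyst cells. Of the embryoid ones, 986 formed 2 clusters in which primitive endoderm markers were high. Those stayed unnamed because trophectoderm markers were among their leading genes, Tspan8 and Fgfr2 in the larger and Cldn4 in the smaller. The trophectoderm transcription factors Cdx2 and Elf5 had a UMI in 78.2% and 68.1% of blastocyst TE-like cells and in 4.70% and 0.0792% of embryoid PrE-like cells. Scrublet called 17 blastocyst doublets and 0 in the embryoid library, where it in effect did not work.

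Replication RNA stood highest in EPI-like cells of both libraries. Levels are given as CPM, a gene's UMIs summed over a class with the total of every class scaled to the same standard sum, and the 36 genes together took 6403 CPM in blastocyst EPI-like cells (95% interval 6307 to 6501). They took 4289 CPM in blastocyst PrE-like cells (4224 to 4355) and 3011 in TE-like cells (2955 to 3069). In the embryoid library they took 5375 CPM in EPI-like cells (5210 to 5544), 3362 in fibroblast-like cells (3189 to 3541) and 2863 in PrE-like cells (2840 to 2886). Blastocyst TE-like cells were thus at 0.470 times the EPI-like level and embryoid PrE-like cells at 0.533 times that of their own library. Levels of different genes are not set against each other, since UMIs counted at transcript ends are not values per length.

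The comparison of trophectoderm with epiblast was the widest. Of the 36 genes, 22 were lower by 2-fold or more in TE-like than in EPI-like cells and 0 were higher by as much. Among all 17814 genes detected in these classes 20.5% were that far lower and 11.5% that far higher, and among those with a mean of at least 10 CPM 21.9% and 14.1%. Of the 35 genes other than Fen1, 33 had a ratio whose 95% interval lay below 1-to-1, and 0 had one above. Their median log2 ratio, with 1 CPM added to each level, was −1.15, against −0.28 over all genes with a mean of at least 10 CPM. How many of all genes had such intervals was not counted. Counts of intervals, here and in the comparisons below, therefore have no background beside them. A scaling on the median ratio of well expressed genes shifted every value by 0.23 towards TE-like cells and left 17 genes at that distance. TE-like cells had a median mitochondrial share of 11.8%, against 9.65% in EPI-like cells, and with cells of at most 10% alone the count was 18; the part of cell quality in the result was otherwise not tested.

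The MCM helicase, the ring that unwinds DNA at the fork, was lower in TE-like cells in all 6 subunits. Mcm3 stood at 67.2 CPM in TE-like cells (59.0 to 76.2), 273 in EPI-like cells (253 to 293) and 121 in PrE-like cells. Mcm5 stood at 168 CPM (154 to 182) against 499 (472 to 527) and 293. The log2 ratios of TE-like over EPI-like cells ran from −2.01 for Mcm3 to −1.38 for Mcm4, with a median of −1.55. The 6 intervals did not overlap between any 2 of the 3 lineages, and TE-like cells were lowest for each subunit. How often the intervals of other genes lay apart was not counted.

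Beside Mcm3, the genes farthest down in TE-like cells were single subunits of the polymerases, of GINS and of the clamp loader. As groups these stood less low than MCM. The 7 polymerase and primase genes had a median log2 ratio of −1.33, with 4 at least 2-fold lower and the nearest at −0.56. The 5 clamp and clamp loader genes had −1.02, with 3 at least 2-fold lower and the nearest at −0.49. The 6 helicase activation genes, GINS among them, had −1.17. Pola1, the catalytic subunit of polymerase alpha, had 23.1 CPM in TE-like cells (18.4 to 28.7) against 137 in EPI-like cells (124 to 152), a log2 ratio of −2.52. Pold1 and Pole, the catalytic subunits of polymerases delta and epsilon, had ratios of −2.10 and −1.91. Gins2, a subunit of the helicase activator GINS, had 7.25 CPM against 35.4 (−2.14), and Rfc5, a subunit of the clamp loader, 49.1 against 188 (−1.92). These 5 genes and Mcm3 were the 6 farthest apart. Gins2 is uncertain, since 67.3% of its exonic bases lie under exons of Gse1 on the opposite strand and no source used here states whether the counting used strand.

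The promoters of 4 genes that stood low in TE-like cells are printed, 3 with and 1 without a match to the words searched, beside those of Rrm2 and Tyms, which did not stand low there. Each line gives 100 bases from before the RefSeq start site (table build GRCm38.p6, mm10 coordinates), 5′ to 3′ on the strand of the gene, and none overlaps an annotated exon. Where a match was found the stretch was placed so that it begins at base 47 of the line, and otherwise the stretch runs from 150 to 51 bases before the start site. Capitals mark exact matches to TTTCCCGC, TTTCGCGC, TTTGCCGC or TTTGGCGC, words of the type bound by the E2f transcription factors that drive S phase genes, searched on both strands. Matches can overlap, as the pair in Mcm5 and the pair in Mcm6 do.
Mcm5 (chr8:75109310-75109409, plus strand): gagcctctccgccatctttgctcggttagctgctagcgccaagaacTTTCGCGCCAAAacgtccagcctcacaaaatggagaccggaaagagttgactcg
Mcm6 (chr1:128359762-128359861, minus strand): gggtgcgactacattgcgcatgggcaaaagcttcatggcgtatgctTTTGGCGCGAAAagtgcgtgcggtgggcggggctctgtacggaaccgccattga
Pola1 (chrX:93632240-93632339, minus strand): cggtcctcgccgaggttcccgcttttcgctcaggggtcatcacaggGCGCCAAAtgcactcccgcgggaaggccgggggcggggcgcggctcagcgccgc
Mcm2 (chr6:88898831-88898930, minus strand): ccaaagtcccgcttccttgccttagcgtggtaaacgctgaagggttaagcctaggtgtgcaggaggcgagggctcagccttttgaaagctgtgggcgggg
Rrm2 (chr12:24708104-24708203, plus strand): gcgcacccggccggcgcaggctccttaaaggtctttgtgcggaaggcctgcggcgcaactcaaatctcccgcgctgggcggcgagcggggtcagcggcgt
Tyms (chr5:30073676-30073775, minus strand): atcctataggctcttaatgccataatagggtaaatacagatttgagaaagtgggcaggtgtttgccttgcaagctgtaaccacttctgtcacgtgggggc

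The promoter table held 28 of the 36 genes, each with a window from 250 bases before to 50 after the start site. A match to at least 1 of the 4 words was found for 12 of the 28, or 42.9%. Of all 27025 genes with such a window, 704 had a match, or 2.61%. Matches were found for Mcm3, Mcm5, Mcm6, Mcm7, Orc1, Cdc6, Cdt1, Gins3, Pola1, Pold1, Rfc3 and Lig1, which span licensing, helicase, polymerase and ligase. Genes at a like distance in TE-like cells had none, among them Rfc5 (−1.92), Mcm2 and Rpa1 (−1.52 each), Rpa2 (−1.48), Mcm10 (−1.38) and Pold2 (−1.33), and Cdc6, at −0.62, had one. A further list of 42 replication genes outside the 36 had matches for 11 of the 36 of its genes in the table (30.6%), and the mitosis list for 1 of 25 (4%). A match describes letters in a window and was not tested as a binding site.

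The 5 licensing genes had a median log2 ratio of −0.82 against EPI-like cells, less far from 0 than MCM, and of −0.93 against PrE-like cells, farther than the −0.75 of MCM. Orc1, the largest subunit of the origin recognition complex, had 23.7 CPM in TE-like cells against 53.6 in EPI-like and 52.4 in PrE-like cells, with log2 ratios of −1.15 and −1.11. Cdt1, the loading factor for MCM, had 141 CPM against 288 and 270.0. Cdc6, which acts with it, had 58.6 against 90.5 and 114, so that PrE-like cells were its highest class. Orc6, the smallest subunit of the complex, had 155 CPM against 188 and 217, a ratio to EPI-like cells of −0.28 (−0.46 to −0.10). Gmnn, the inhibitor of Cdt1, had 197 CPM in TE-like and 212 in PrE-like cells, and the interval of that ratio spanned 0 (−0.10, −0.25 to 0.04).

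The genes that fill the fork with single-strand binding protein and join its fragments were low with MCM. Rpa1 and Rpa2, subunits of RPA, had log2 ratios of −1.52 and −1.48 between TE-like and EPI-like cells. Lig1, the ligase that seals Okazaki fragments, had 182 CPM (168 to 196) against 524 (497 to 553). Pcna, the sliding clamp, had 63.8 against 131. Fen1, the flap nuclease of the same step, had 4 UMIs in the embryoid and 1 in the blastocyst file, and no ratio is given for it. Its exonic bases lie to 84.2% under exons of opposite-strand genes, so its count is uncertain.

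The genes of nucleotide supply did not share the difference. Rrm2, the regulated subunit of ribonucleotide reductase, had 441 CPM in TE-like cells (419 to 463), 440.2 in EPI-like cells (415 to 466) and 427 in PrE-like cells (406 to 448). These intervals overlapped, and the log2 ratio of TE-like over EPI-like cells was 0.00 (−0.11 to 0.11). Tyms, thymidylate synthase, had 97.9 CPM against 90.2 and 77.2, a ratio to EPI-like cells of 0.12 (−0.12 to 0.36). Rrm1, the other reductase subunit, had 109 against 138 and 142, a ratio of −0.34 (−0.55 to −0.13). With the scaling on well expressed genes, Rrm2 and Tyms were at 0.23 and 0.35 towards TE-like cells and Rrm1 at −0.11. Among the 35 genes Rrm2 and Tyms were the only ones highest in TE-like cells of the 3 lineages, and TE-like cells were lowest in 31.

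**Figure D1:**
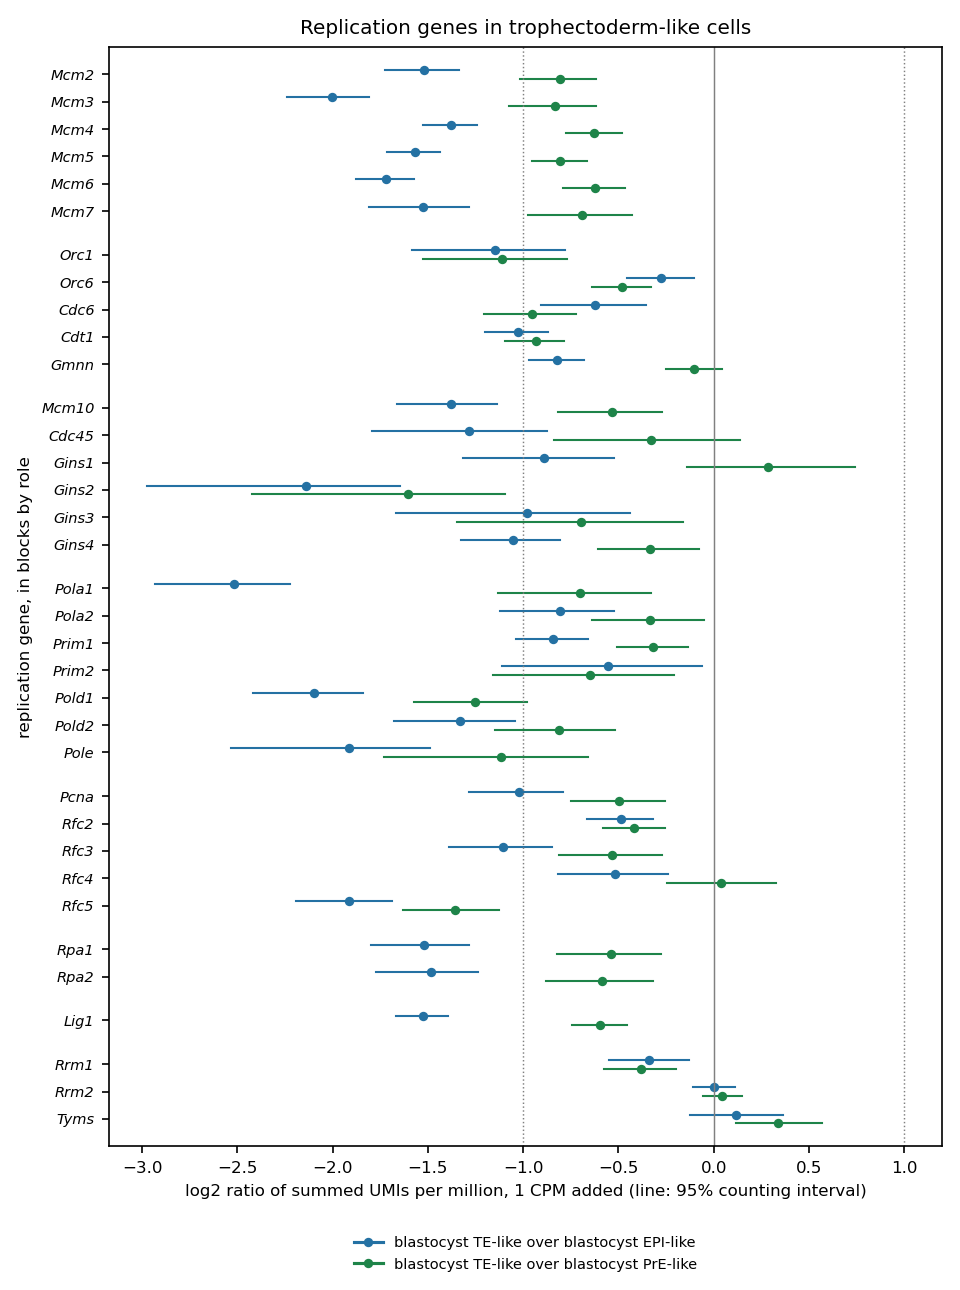
Log2 ratio of CPM levels (1 CPM added) of blastocyst TE-like cells over EPI-like cells (blue) and over PrE-like cells (green) for 35 replication genes in blocks by role, without Fen1; lines are exact 95% counting intervals and dotted lines mark 2-fold. The MCM block lies between −2.01 and −1.38 in blue, while Rrm2 and Tyms lie at 0.00 and 0.12.

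Trophectoderm and primitive endoderm stood closer. Of the 36, 5 were lower by 2-fold or more and 0 higher, where 18.2% of 17990 detected genes were that far lower and 8.78% that far higher, and 19.7% and 10.8% of those with a mean of at least 10 CPM. That count is no larger than the background. The 5 were Gins2 (−1.61), Rfc5 (−1.36), Pold1 (−1.25), Pole (−1.12) and Orc1 (−1.11). The median over 35 genes was −0.60, against −0.35 over all genes of at least 10 CPM, and 29 of the 35 intervals lay below 0. The scaling on well expressed genes shifted values by 0.19 and left 3 genes at that distance, and with 10 CPM added in place of 1 there were 2. Tyms was the 1 gene with an interval above 0 (0.34, 0.12 to 0.57).

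EPI-like cells stood above PrE-like cells in 31 of the 35 genes, with a median log2 ratio of 0.57. At least 2-fold higher were 4 of the 36, against 10.6% of all 18199 detected genes and 9.45% of those with a mean of at least 10 CPM. This count was close to the background. The 4 genes were Pola1 (1.82), Gins1 (1.18), Mcm3 (1.17) and Mcm6 (1.10). With cells of at most 10% mitochondrial UMIs, or with the mean over cells, the count was 7. Cdc6 and Orc6 had intervals on the other side, at −0.33 and −0.20.

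The mitosis genes were ordered differently from the replication genes. Together the 30 took 2599 CPM in TE-like cells (2547 to 2653), 4597 in EPI-like cells (4515 to 4679) and 5046 in PrE-like cells (4976 to 5117). Of the 30, 12 were lower by 2-fold or more than in EPI-like cells (median −0.80) and 17 than in PrE-like cells (median −1.06). None was higher by as much in either comparison. Of all detected genes 20.5% and 18.2% were that far lower, and 11.5% and 8.78% that far higher. Top2a, the topoisomerase of chromosome separation, had 148 CPM in TE-like cells against 469 and 588. Cenpf, a kinetochore protein, had 203 in EPI-like and 144 in PrE-like cells, with log2 ratios of TE-like over these of −2.28 and −1.79.

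The ratio of replication to mitosis UMIs put these together. It was 1.16 in TE-like cells (1.13 to 1.19), 1.39 in EPI-like cells (1.36 to 1.43) and 0.850 in PrE-like cells (0.833 to 0.868), so TE-like cells lay between the other lineages. In the embryoid library it was 0.812 in EPI-like, 0.755 in fibroblast-like and 0.558 in PrE-like cells. TE-like cells had 0.832 times the ratio of EPI-like cells and 1.36 times that of PrE-like cells.

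The other 42 replication genes, among them the remaining origin recognition, polymerase and checkpoint genes, stood lower by 2-fold or more in TE-like than in EPI-like cells in 21 cases and higher in 1. Uhrf1 and Dnmt1, which copy DNA methylation onto the new strand, had log2 ratios of −2.53 and −2.03. Dbf4 and Cdc7, the regulatory and catalytic subunits of the kinase that fires origins, had −1.74 and −1.69. Ticrr, needed to load Cdc45, had −1.82, and Atad5, which unloads the clamp, −1.76. Timeless, of the fork protection complex, had −1.54. Pold4, the smallest subunit of polymerase delta, was the exception at 15.1 CPM against 1.90 (2.47, 1.67 to 4.66). Against PrE-like cells 11 of the 42 were at least 2-fold lower and 0 higher. Atad5 (−1.61) and Rfc1 (−1.44), the large subunit of the clamp loader, were farthest down. Of all detected genes 20.5% were at least 2-fold lower and 11.5% higher against EPI-like cells. Against PrE-like cells those shares were 18.2% and 8.78%.

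Genes that govern the entry into S phase or are known from endocycles were read from a list of 26. Of these, 14 stood lower by 2-fold or more in TE-like than in EPI-like cells and 1 higher, Rbl2, a pocket protein related to Rb1, which had 15 UMIs against 2 (interval of the log2 ratio 0.35 to 5.63). Against PrE-like cells 8 stood lower by as much and 2 higher. Among all detected genes 20.5% were that far lower and 11.5% higher against EPI-like cells, and 18.2% and 8.78% against PrE-like cells. Ccnd1 (cyclin D1) had opposite directions, with 23.1 CPM in TE-like cells against 126 in EPI-like (−2.39) and 3.08 in PrE-like cells (2.57). Skp2, which targets CDK inhibitors for breakdown, had −2.36 and −1.93 against these classes, Cdkn1b, such an inhibitor, −1.63 and −2.03, and Ccne1 (cyclin E1) −1.53 and −1.61. E2f1 had −1.81 and −0.82, and Chek1, a replication checkpoint kinase, −1.56 and −0.69. E2f8, an atypical E2f known in trophoblast giant cells, had 42.9 CPM in TE-like cells against 27.0 in EPI-like and 32.8 in PrE-like cells, with a ratio to the first of 0.65 (0.25 to 1.10). Its partner E2f7 had 7.81 against 19.0 and 29.0. Cdkn1c, a CDK inhibitor of giant cell formation, had 2.79 CPM against 12.2 in EPI-like and 1.54 in PrE-like cells, and the interval of the ratio to the latter spanned 0.

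TE-like cells were not alike among themselves. They fell into 4 clusters, called B2, B4, B6 and B8, formed without the 36 genes, the mitosis genes or the other lists, although further cycle genes stayed among the genes used. The 36 genes took 4581 CPM in B4 (93 cells, 4442 to 4723), 4351 in B8 (55 cells, 4188 to 4519), 2188 in B2 (150 cells, 2110 to 2268) and 1444 in B6 (78 cells, 1357 to 1535). B4 and B8 thus reached the level of all blastocyst PrE-like cells, 4289, and B6 was the lowest cluster of either library. Of the 35 genes, 30 were lowest in B6 and 5 in B2, and 18 were highest in B8, 16 in B4 and 1 in B2. Between B4 and B6, 29 were at least 2-fold apart, with a median log2 ratio of 1.56, and between B4 and B8 only 3. No share over all genes was counted for these clusters, so whether the 35 genes stand out between them was not tested.

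Cdc6 had 139 CPM in B4, 61.6 in B8, 26.6 in B2 and 15.4 in B6. Mcm5 had 275, 279, 109 and 47.5 CPM in the same order. Rrm2 had 828, 543, 267 and 194 CPM, so the gene that was level between the lineages ranged over 2.09 on the log2 scale within TE-like cells. Gins3 and Tyms ranged least, over 0.55 and 0.59. Gins1 ranged most, over 3.17, from 4.19 CPM in B6 to 45.6 in B4.

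**Figure D2:**
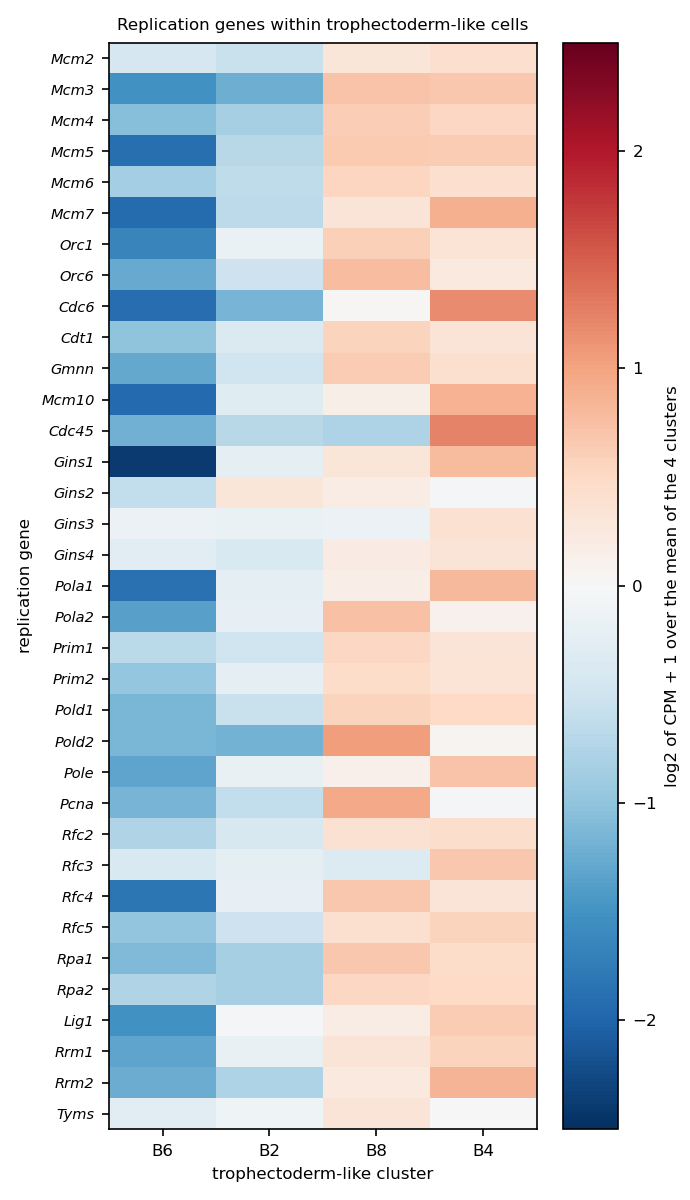
Level of 35 replication genes in the 4 blastocyst TE-like clusters, as the log2 of CPM + 1 over the mean of the 4 clusters (red above, blue below the mean). Blue fills most of B6 and B2, and red most of B8 and B4; 30 genes are lowest in B6.

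The clusters also differed in markers, mitosis and cell quality measures. B6 had the most Gata3 (1082 CPM), Gata2 (615) and Eomes (966), and B8 the most Elf5 (564) and the least Cdx2 (60.0 against 324 to 353 in the others). H19 and Msx1 led B4. Mitosis genes took 3719 CPM in B4, 3445 in B8, 2470 in B2 and 709 in B6. The ratio of replication to mitosis UMIs was 1.23 in B4, 1.26 in B8, 0.886 in B2 and 2.04 in B6 (1.83 to 2.27), where both lists were at their lowest. Median UMIs per cell were 7987 to 8708 in B2, B4 and B6 and 11747 in B8, and median mitochondrial shares 11.9% to 12.6% and 8.29%. Their part in the result was not tested.

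Some of the control genes differed between these clusters, while others varied little, among them Fzr1 (76.9 to 109 CPM) and E2f6 (17.8 to 22.9 CPM). E2f8 had 86.7 CPM in B6 against 25.8 to 45.4 in the others, while E2f7 had 0 UMIs in B6 and 32.4 CPM in B8. Ccne1 had 110.3 CPM in B8, 34.5 in B4, 14.8 in B2 and 6.99 in B6. Fbxo5, an inhibitor of the complex that ends mitosis, had 142 CPM in B4 and 30.8 to 63.2 in the others. Cdk2 ran the other way in B8, with 74.6 CPM against 179 to 328. Cdkn1c had 14.6 CPM in B8 and 0 to 0.738 in the others.

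**Figure D3:**
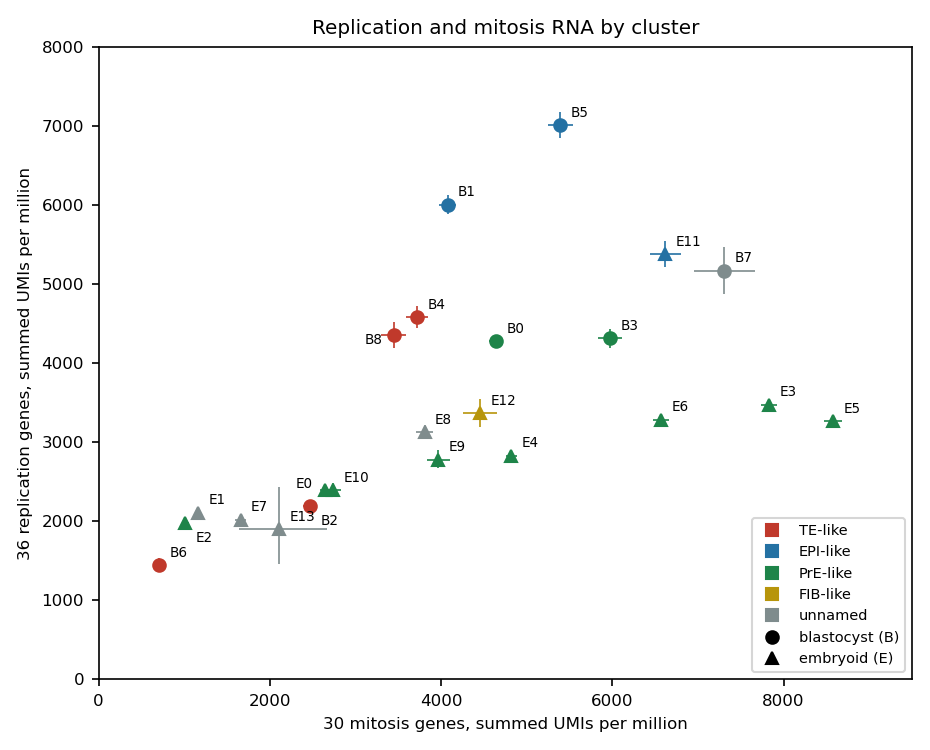
Summed CPM of the 36 replication genes (vertical) against those of the 30 mitosis genes (horizontal) in each of 23 clusters, colored by class, circles for blastocyst (B) and triangles for embryoid (E); bars are exact 95% counting intervals. TE-like clusters run from B6 at 1444 to B4 at 4581, EPI-like clusters lie at the top, and embryoid PrE-like clusters extend to the right at 1970 to 3473.

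Single cells were also compared at equal depth. Every cell was thinned to 2000 UMIs, which left out 12 TE-like, 10 EPI-like, 7 blastocyst PrE-like, 255 embryoid PrE-like and 4 embryoid EPI-like cells. The median cell then had 4 UMIs of the 36 genes in TE-like, 13 in EPI-like and 8 in PrE-like cells of the blastocyst. It had 5 in PrE-like and 11 in EPI-like cells of the embryoids. No UMI of the 36 was left in 6.04% of TE-like cells (3.83 to 9.01) and in 0 of 247 EPI-like cells, which allows up to 1.48%. TE-like cells were also the most uneven, with a variance of 3.97 times the mean against 1.43 in EPI-like and 2.21 in PrE-like cells.

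**Figure D4:**
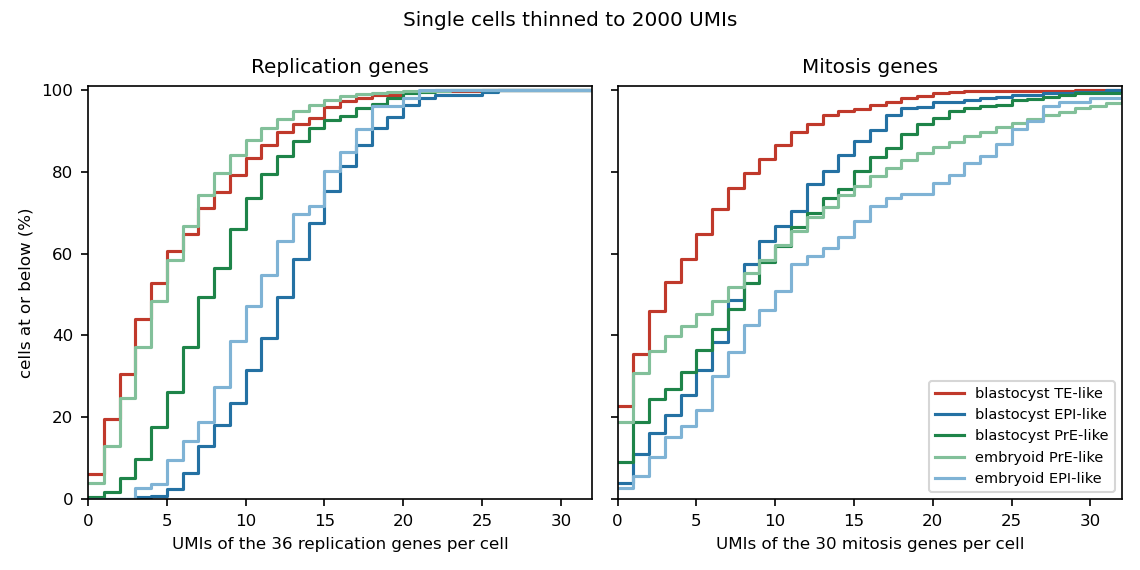
Share of cells (%) at or below each number of UMIs of the 36 replication genes (left) and of the 30 mitosis genes (right), every cell thinned to 2000 UMIs, by class. The TE-like curve starts at 6.04% without replication UMIs and 22.8% without mitosis UMIs, and the EPI-like curve at 0 and 4.05%.

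The share of positive cells followed the summed levels. Mcm3 had a UMI in 34.3% of TE-like, 84.4% of EPI-like and 61.6% of PrE-like cells, and at 2000 UMIs per cell in 10.2% (7.26 to 13.7), 39.3% (33.1 to 45.7) and 23.0% (18.8 to 27.7). Lig1 had one at 2000 UMIs in 26.1%, 63.2% and 41.9%. Rrm2 had one in 44.2% (39.1 to 49.5), 50.6% (44.2 to 57.0) and 45.5% (40.3 to 50.7), and those intervals overlapped. Tyms had 16.5%, 15.4% and 11.8%. At equal depth TE-like cells had the lowest share for 31 of 35 genes and the highest for Tyms alone. The median share over the 36 genes was 23.9% in EPI-like and 14.5% in PrE-like cells. Free RNA may set a floor for such shares, although its part was not tested. Cdx2 and Elf5, which epiblast and primitive endoderm should lack, had a UMI at 2000 UMIs in 41.8% and 31.3% of TE-like cells. Each had one in 0.405% of EPI-like and 0 of 365 PrE-like cells. Gata3, a further trophectoderm factor, had one in 1.21% of EPI-like and 1.10% of PrE-like cells. In TE-like cells the lowest shares of the 36 genes were 0 of 364 for Fen1, which allows up to 1.01%, and 1.37% for Gins2, about the level of Gata3 in classes that should lack it, 2.20% for Gins3 and 2.75% for Pole and Prim2. Gata3 had 698 CPM in TE-like cells, far more than Gins2 in any blastocyst lineage, so its share is no matched floor for Gins2.

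Mitosis UMIs were absent at 2000 UMIs per cell in 22.8% of TE-like (18.6 to 27.5), 4.05% of EPI-like and 9.04% of PrE-like cells. Among TE-like cells with at least 3 replication UMIs, 30 of 253 had no mitosis UMI, or 11.9% (8.15 to 16.5). The share was 4.05% in EPI-like cells (10 of 247, up to 7.32) and 8.67% in PrE-like cells (30 of 346, 5.93 to 12.1). The TE-like and PrE-like intervals overlapped. In the embryoids it was 12.8% in PrE-like (341 of 2659) and 2.83% in EPI-like cells (3 of 106). It was highest in embryoid fibroblast-like cells, at 19.5% (15 of 77, 11.3 to 30.1), an interval that overlapped that of TE-like cells.

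The order of the lineages in this share depended on the bound and the depth. With at least 1 replication UMI it was 21.6% in TE-like cells (17.4 to 26.4) and 9.09% in PrE-like cells (6.34 to 12.5), which did not overlap. With at least 5 it was 5.23% (2.42 to 9.70) and 6.64% (4.11 to 10.1), which did. In embryoid fibroblast-like cells it was 20.6% of 63 cells with at least 5 (11.5 to 32.7). With at least 3 at 4000 UMIs per cell it was 7.50% of 40 such cells (1.57 to 20.4). At 4000 UMIs per cell and at least 3 replication UMIs it was 13.7% in TE-like cells (42 of 307, up to 18.0), 0.442% in EPI-like cells (up to 2.44), 2.63% in PrE-like cells (1.21 to 4.94) and 6.46% in embryoid PrE-like cells, and the TE-like interval lay above those of the other blastocyst lineages. Of these 42 cells 24 were in cluster B6, where they were 42.9% of 56 (29.7 to 56.8), 16 in B2, 2 in B4 and 0 in B8. With at least 10 replication UMIs at that depth, a bound chosen after seeing the data, the shares were 1.94% of 155 TE-like cells (3 cells, 0.401 to 5.55), 0.444% of 225 EPI-like cells and 2.08% of 289 PrE-like cells. TE-like cells with few replication UMIs thus made up most of those without mitosis UMIs, and a fixed bound takes a different part of each lineage, since 307 of 333 TE-like but all 226 EPI-like and 342 PrE-like cells had at least 3.

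Within TE-like cells both lists moved up and down together. The 172 cells above the median of 4 replication UMIs had a mean of 6.56 mitosis UMIs, and 5.23% had none. The 192 cells at or below it had a mean of 3.04, and 38.5% had none. Over the 364 cells Spearman's rho was 0.53, and within clusters B2, B4, B6 and B8 it was 0.35, 0.15, 0.32 and 0.44. In the other blastocyst lineages it was −0.02 (247 EPI-like cells) and 0.03 (365 PrE-like cells). In the embryoids it was 0.28 in 3535 PrE-like, 0.18 in 93 fibroblast-like and −0.16 in 106 EPI-like cells. In embryoid PrE-like cells 6.26% above their median and 28.0% at or below it had no mitosis UMI. Such a split does not by itself show a joint movement. It was 3.14% and 13.6% in blastocyst PrE-like and 0.980% and 6.21% in blastocyst EPI-like cells, where rho was 0.03 and −0.02. These are descriptions over cells of 1 library, and both counts come out of the same 2000 UMIs.

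Embryoid and blastocyst cells of like name were compared next, the question the series sets for its embryoids. In PrE-like cells 4 of the 36 genes were at least 2-fold lower in the embryoids and 0 higher, where 8.76% of 20776 detected genes were that far lower and 12.5% higher, and 10.8% and 15.6% of those with a mean of at least 10 CPM. The count of lower genes was thus close to the background. The 4 were Cdc6, at 49.4 CPM against 114 (−1.19), Rrm2, at 187 (182 to 193) against 427 (−1.18), Cdt1, at 129 against 270.0 (−1.06), and Pold1 (−1.03). The median over 35 genes was −0.49, against 0.05 over all genes of at least 10 CPM, and 28 intervals lay below 0. Counting the 986 cells of unnamed embryoid clusters with primitive endoderm markers as PrE-like, the count was 7, as it was with coarser clusters or with cells named one by one. Tyms was the 1 gene with an interval above 0, at 129.9 CPM against 77.2 (0.74, 0.58 to 0.93). The mitosis list was mixed, with a median of 0.20, 16 of 30 intervals above 0 and 6 below. Nusap1, a spindle protein, was at least 2-fold higher (1.07), and Birc5, of the chromosomal passenger complex, was lowest (−0.98). Cdkn1a, a CDK inhibitor that also binds PCNA, had 431 CPM against 7.44, and Ccnd2 (cyclin D2) 207 against 20.8.

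In EPI-like cells 2 of the 36 were at least 2-fold lower in the embryoids and 0 higher, where 12.4% of 17046 detected genes were lower and 19.4% higher, and 8.75% and 12.3% of those with a mean of at least 10 CPM. Neither count was larger than the background. The 2 lower genes were Rfc4, at 30.8 CPM (19.5 to 46.3) against 79.1 (−1.33), and Prim1, the catalytic primase subunit (−1.01). Under 5 other settings 1 gene was left. The median was −0.29, and 18 of 35 intervals spanned 0. MCM subunits were mixed, with Mcm5 at 514 against 499 and Mcm4 at 271 against 444. This class had 110 cells. Mitosis genes had a median of 0.59, with Ube2c, Aurkb, Hmmr and Plk1 at least 2-fold higher.

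**Figure D5:**
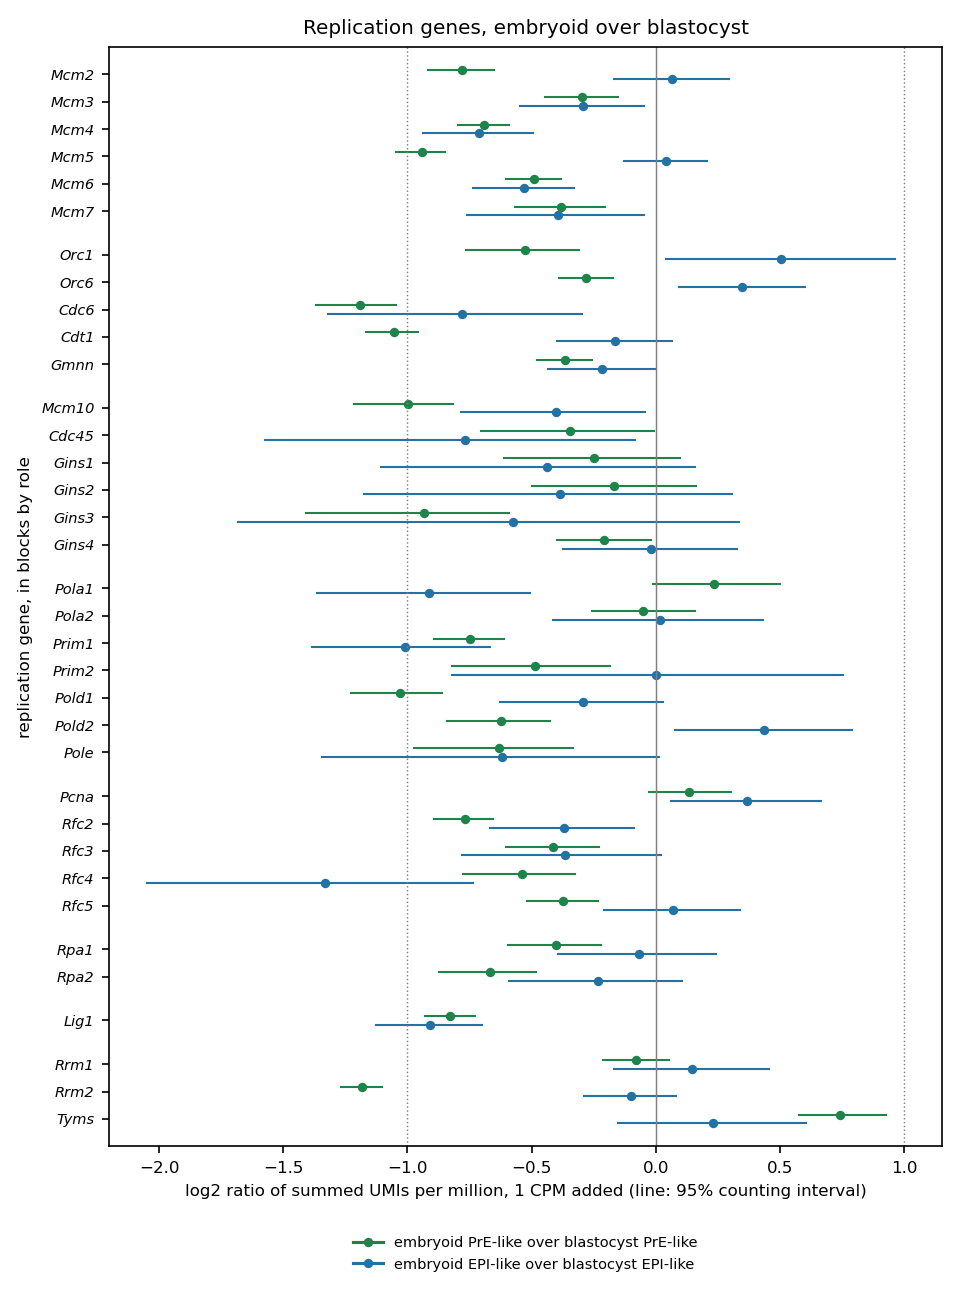
Log2 ratio of CPM levels (1 CPM added) of embryoid over blastocyst PrE-like cells (green) and of embryoid over blastocyst EPI-like cells (blue) for 35 replication genes in blocks by role, without Fen1; lines are exact 95% counting intervals. Green points lie mostly below 0, down to −1.19 for Cdc6, with Tyms at 0.74, and 18 blue lines cross 0.

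Within the embryoid library PrE-like cells stood below EPI-like cells in 33 of 35 genes, with a median of −0.82. At least 2-fold lower were 11 of the 36 and 0 higher, where 13.5% of 20271 detected genes were that far lower and 14.5% higher, and 11.4% and 18.4% of those with a mean of at least 10 CPM. With cells thinned to 2000 UMIs the count was 19. Farthest apart were Mcm5, at 152 CPM against 514 (−1.75), Pold1 (−1.58), Pold2, the accessory subunit of polymerase delta (−1.58), Mcm2 (−1.56), Mcm10 (−1.44) and Rpa2 (−1.33). Rpa1, Mcm3, Rrm2, Orc1 and Mcm6 made up the 11. Rrm2 was at 187 CPM against 410.3, whereas in the blastocyst it was level between these classes. Whether the embryoid and blastocyst contrasts differ was not tested.

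The embryoid PrE-like cells came from 8 clusters, in which the 36 genes took 1970 to 3473 CPM and the mitosis genes 1012 to 8576. Of the 35 genes, 19 were lowest in cluster E2, led by Sfrp5, Frzb and Fst, and 16 were highest in E3, led by Dab1 and Emilin3 and also by cycle genes. Cluster E6, where 10 were highest, was led by amino acid stress genes (Chac1, Trib3, Asns). Shares over all genes were not counted for the embryoid clusters either. Of the MCM subunits Mcm6 varied least between the 8 clusters, from 143 to 171 CPM (0.26 on the log2 scale), and Mcm7 most, from 40.7 to 79.8 (0.95), with Mcm5 from 104 to 180.4. Cdc45 ran from 5.57 to 29.1 CPM. The ratio of replication to mitosis UMIs ran from 0.381 in E5 to 1.95 in E2 (1.85 to 2.05), so a high ratio at low levels of both lists also occurred outside trophectoderm.

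Over all 23 clusters, 9 from the blastocyst and 14 from the embryoid library, each gene was compared with the sum of the 36 by Spearman's rho, as a description that shares libraries and scaling. The median rho of the 35 genes was 0.83, against 0.70 for the other replication list, 0.65 for the mitosis list and −0.03 for all 10591 genes of at least 20 CPM in 1 cluster. Each of the 35 is itself part of the sum and the other genes are not, so their medians cannot be set against each other. Lig1 and Mcm10 followed the sum most closely (0.96 each) and Tyms least (0.08). Among the closest outside the 36 were Stip1 (0.97), Tcof1 (0.96), Chek1 (0.95), Dtl (0.95), Spc24 (0.95), Mms22l (0.94), Ctps (0.94), Snrpd1 (0.94) and Lmnb1 (0.93). The sum of the 36 and that of the mitosis genes had a rho of 0.58 over the 9 blastocyst and 0.88 over the 14 embryoid clusters.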

How the data were processed

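Single-cell RNA-seq (BD Rhapsody, polyadenylated RNA) was measured in 1 embryoid and 1 blastocyst library. The deposited values are UMI counts per gene and cell, not normalized. Per the submitters' processing notes, the build named is mm10 and the tools are STAR (2.7.1a), UMI-tools (1.0.1), featureCounts of Subread (1.6.4) and bcl2fastq (2.19.1.403), and the strand setting is not stated there. The tables hold 28923930 embryoid and 11047555 blastocyst UMIs.

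Cells with at least 1000 UMIs, at least 500 genes and at most 25% mitochondrial UMIs were kept, and doublets called by Scrublet (scanpy) were removed. Each library was clustered on its own (scanpy 1.11.5, leidenalg 0.10.2, 2000 variable genes, 30 components, 20 neighbours, resolution 1) without the 36 genes, the other replication, mitosis and control lists, ribosomal and mitochondrial genes. A cluster was named for the class with at least 3 of its markers high (20 CPM or more, and at least 0.333 of the highest cluster) and over 0.5 of those detected. It stayed unnamed where its leading 10 genes held more markers of another class, or where mitochondrial UMIs were at under 0.1 times the library median. The share of 0.5 was set after marker levels had been seen, and a difference from the study may come from rebuilt names.

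UMIs were summed per class, with exact Poisson 95% intervals. Log2 ratios have 1 CPM added, and their intervals are exact conditional binomial intervals of the count ratio (scipy 1.17.1). Shares have exact Clopper-Pearson intervals. UMIs of 1 cell are not independent of each other, and every interval covers counting error only. With 1 library per group there is no test between groups. The scripts were tested on simulated data. Promoter windows came from RefSeq, exon overlaps from GENCODE vM21.

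All 36 genes are accounted for. Named in each comparison were genes at least 2-fold apart, or the 6 farthest each way, and genes shown by role; from other lists, those at least 2-fold apart, up to 8 per list; and the 10 genes most like the sum, of which 1 is not reported here. Further genes, and clusters, were picked after their values were seen. The 36 genes and all lists were chosen with earlier results of these data known. Other scalings, added CPM, filters, resolutions, namings and depths were tried.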

Additional observations from a re-analysis of the deposited data

Results flagged for a closer look

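Orc6 stood lower in PrE-like than in EPI-like cells of the embryoids, with a log2 ratio of −0.42 (−0.64 to −0.20), and higher in the blastocyst, at 0.20 (0.04 to 0.37). Cdc6, Prim2, Rrm1, Rfc4 and Tyms also had opposite directions in the 2 libraries, but each had an interval that covered both directions in at least 1 library. Orc6 was singled out because neither of its intervals did. The difference was not tested, and each direction rests on 1 library.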

How the results depend on the processing

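Of 226 repeats of the counts, ratios and shares under other settings, 198 stayed close to the reported value, 28 moved and 0 reversed. Of 3198 repeats for single genes, 3052 stayed and 146 moved. The median log2 ratio ran from −1.32 to −0.89 for TE-like over EPI-like cells and from −0.61 to −0.38 for TE-like over PrE-like cells. It ran from 0.51 to 0.66 for EPI-like over PrE-like cells, from −0.58 to −0.40 for embryoid over blastocyst PrE-like cells, from −0.32 to −0.14 for EPI-like cells, and came no nearer to 0 than −0.72 within the embryoids. The count of 22 genes ran from 16 to 23.

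Genes lower in TE-like than in PrE-like cells numbered 3 with median-of-ratios scaling and 2 with 10 CPM added. Genes higher in EPI-like than in PrE-like cells numbered 7 with at most 10% mitochondrial UMIs and with the mean of the cells. For embryoid over blastocyst PrE-like cells 7 were lower at resolution 0.5, with cells named one by one and, chosen after seeing the data, with unnamed clusters added, and 1 was higher with cells thinned to 2000 UMIs. For EPI-like cells 1 was lower with median-of-ratios scaling, 10 CPM added, cells named one by one, the mean of the cells and, chosen after seeing the data, without the 5% of cells with most UMIs. Within the embryoids 19 were lower after thinning to 2000 UMIs.

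The replication to mitosis ratio of TE-like over EPI-like cells was 0.875 with at most 10% mitochondrial UMIs and 0.791 without Top2a and Mki67, and over PrE-like cells 1.51 and 1.26. The share of TE-like cells with replication and no mitosis UMIs was 21.6% from 1 and 5.23% from 5 replication UMIs. From 10 at 4000 UMIs per cell, chosen after seeing the data, it was 1.94% in TE-like, 0.444% in EPI-like and 2.08% in PrE-like cells, and from 3 at that depth 13.7%, 0.442% and 2.63%. At 4000 UMIs the median share of cells with a UMI of a gene was 17.3%, 37.2% and 26.6%. Beyond the depth and bounds set by each setting, the cause was not tested. No paired analysis was possible because each group is 1 library. Depth limits shares of rare genes and the small embryoid classes, 110 EPI-like and 104 fibroblast-like cells.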
